A study of Drosophila melanogaster with 54 samples.

Results

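The genes described here are 10 transcription factor genes of the Drosophila melanogaster heart and amnioserosa, out of 17481 genes counted. They were taken by symbol and matched to the gene identifiers of the tables, and all 10 were found. They are the T-box genes Doc1, Doc2, Doc3, mid and H15, the homeobox genes tin and tup, the GATA gene pnr, the basic helix-loop-helix gene Hand and the nuclear receptor gene svp. RNA was sequenced from 54 single whole embryos, each picked by hand and staged by its morphology. Stages 4, 6, 8 and 12 have 5 embryos each, stages 5 and 10 have 9 each, and stages 13 and 15 have 8 each. The labels give the stage as the one group and name no strain, genotype or treatment. An embryo is called here by the letter in its title. A library held 1632448 to 12863155 reads in genes (median 4713817). The labels say nothing of separate crosses or collections, and p-values therefore measure the variation among these embryos, which may be partly technical.

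The dorsal vessel, the heart of the fly, is a tube of contractile cardioblasts flanked by pericardial cells, and it forms from the dorsal edge of the mesoderm. The signal Dpp from the overlying ectoderm and the signal Wingless set where heart cells arise, and a circuit of tin, pnr and the Doc genes then holds the cardiac fate. The amnioserosa is a thin extraembryonic epithelium on the dorsal side. It takes part in germ band retraction and dorsal closure and disappears afterwards. Most of these genes are also active elsewhere, for example in the dorsal ectoderm, the segmented epidermis or the nervous system. In whole embryos these sources are measured together, and fewer cells of a type cannot be told apart from less RNA per cell.

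Levels are CPM, gene counts scaled to a common library total, relative to the scaled gene counts of the embryo. Grouped by the comparison of neighbouring stages with the largest log2 rise of each gene, the genes came on in 3 waves. At stage 4 all 10 had means below 1 CPM, and their summed level was 0.589 ± 0.312 CPM (SD, n = 5). At stage 5 the sum was 180.0 ± 40.2 CPM (n = 9), of which Doc1, Doc2, Doc3 and tup, each above 10 CPM, made up nearly all. At stage 6 pnr, mid and tin had passed 10 CPM as well, and the sum was 781 ± 74.9 CPM (n = 5). It was highest at stage 8 with 825 ± 55.7 CPM and lowest of the later stages at stage 15 with 435 ± 48.2 CPM. The last wave was svp at stage 10, Hand at stage 12 and H15 at stage 13. No single level marks these waves. At stage 5 pnr, mid and tin already had means of 3.05, 1.37 and 1.11 CPM, and svp had 2.22 at stage 8. Hand and H15 had means of 3.75 and 4.68 CPM at stages 12 and 13 and passed 10 CPM only at stage 15. Only at stages 13 and 15 did all 10 have means of at least 1 CPM.

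**Figure D1:**
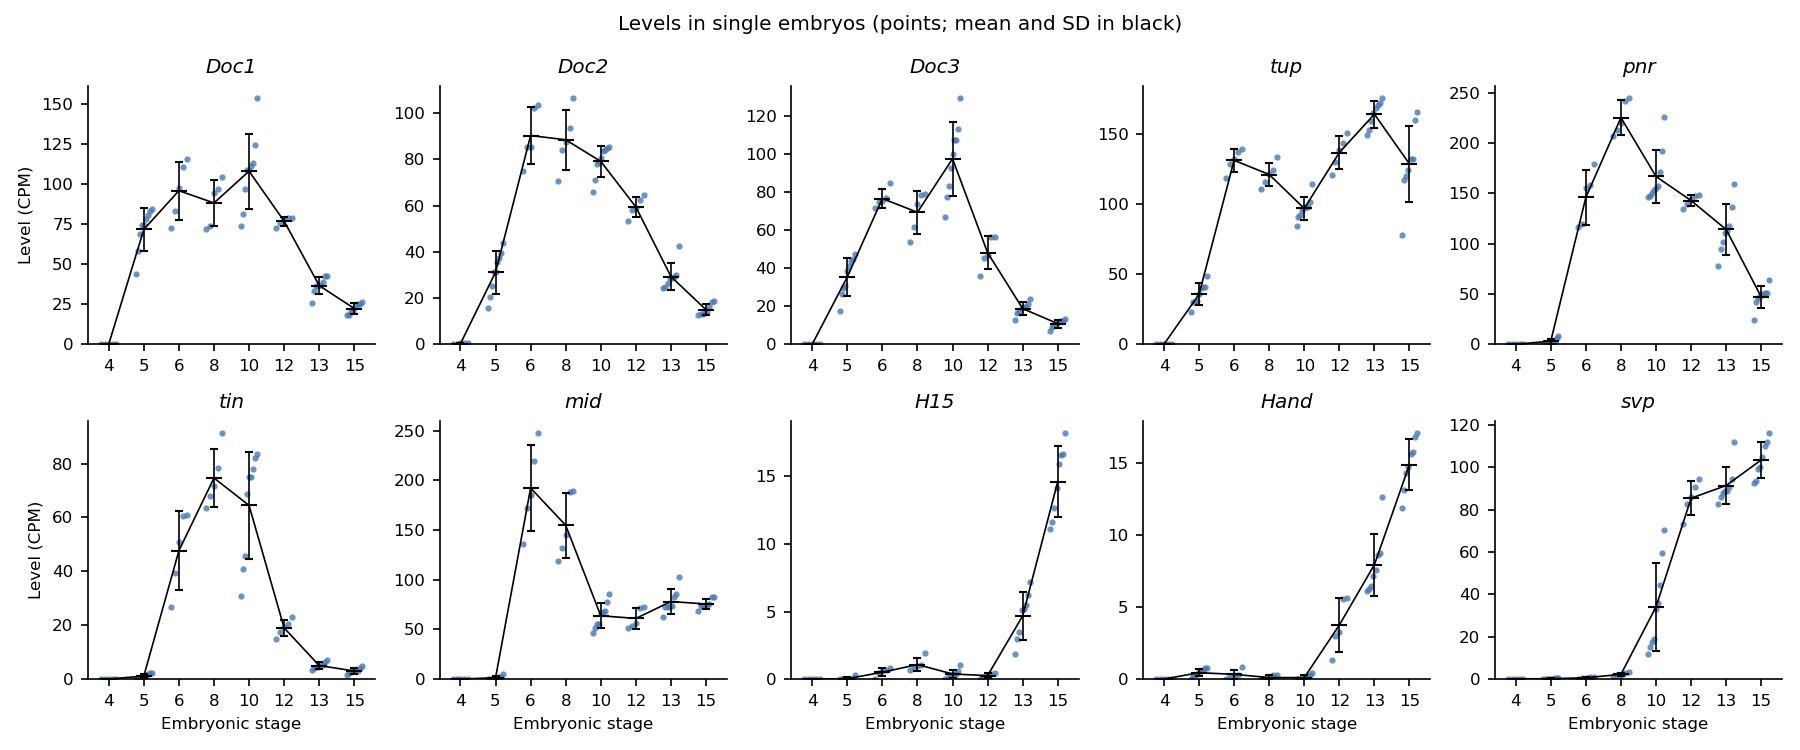
Level of each gene in single embryos, in CPM on the y axis, by stage on the x axis; points are embryos and black marks are the stage mean with its SD. All embryos were above 10 CPM at stage 5 for Doc1, Doc2, Doc3 and tup and at stage 6 for pnr, tin and mid. By stage 15 tin was back at a mean of 3.01 CPM and Doc3 at 10.8, and svp, Hand and H15 had their highest means there.

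Changes between neighbouring stages were tested with edgeR's quasi-likelihood test over 9783 genes, and a gene was called at a Benjamini-Hochberg adjusted p under 0.05. From stage 4 to 5, 8 of the 10 genes were higher and 0 lower, against 52.1% of all genes higher and 30.6% lower. From stage 5 to 6 again 8 were higher and 0 lower, against 28% and 21.5% of all genes. From stage 6 to 8, 3 were higher and 0 lower, against 9.8% and 8.65%. From stage 8 to 10, 2 were higher and 4 lower, against 25.6% and 24.9%.

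Later stages had calls in both directions. From stage 10 to 12, 3 were higher and 4 lower, against 24.5% and 23.4% of all genes. From stage 12 to 13 there were again 3 higher and 4 lower, against 31.0% and 25.0%. From stage 13 to 15, 2 were higher and 6 lower, against 28.8% and 27.1%. The median log2 change of the 10 genes was 4.98 from stage 4 to 5, also with genes at 0 reads set to their bounds, where that of all genes was 0.72, and 1.90 from stage 5 to 6, where that of all genes was 0.04. In the other comparisons it lay between -0.53 and -0.07, with all genes within 0.04 of 0. With DESeq2 size factors the median of all genes from stage 4 to 5 was 0.85, so these rises are read against a shift of that size. No test was made of the 10 genes against other genes. Where embryos of different stages are said below not to overlap, the share of all genes without overlap was not computed.

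**Figure D2:**
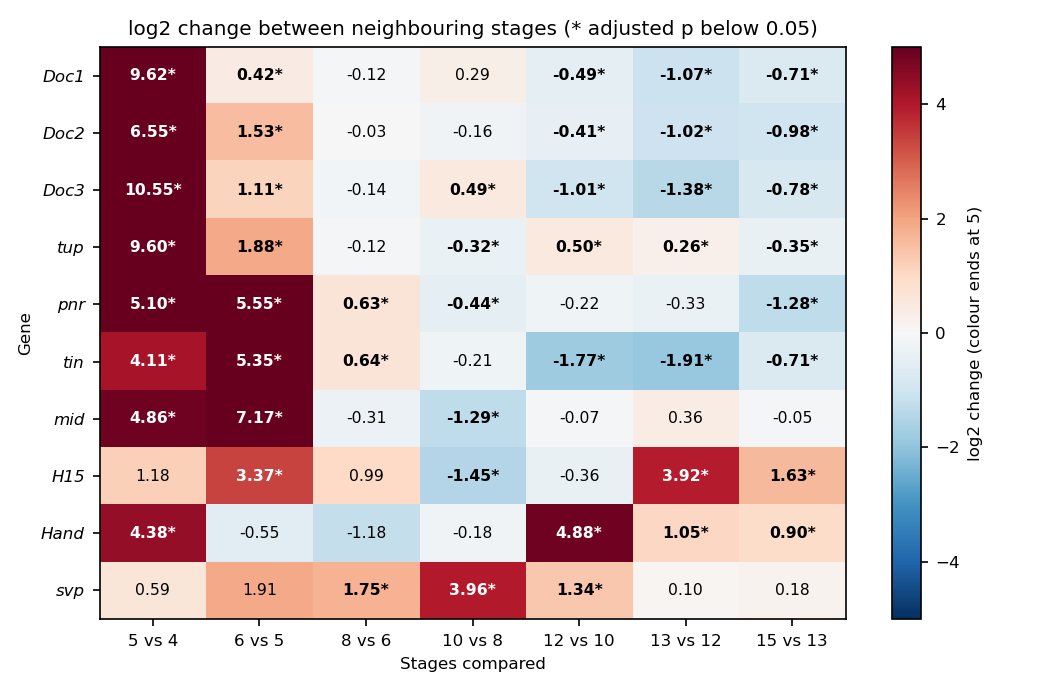
Heat map of the log2 change of each gene (rows) between neighbouring stages (columns); red is higher and blue lower in the later stage, the colour ends at 5, and an asterisk marks an adjusted p below 0.05. The Doc genes and tin run from red in the first columns to blue in the last 3, while H15 and Hand are red at the end.

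The 3 Doc genes, which act in the amnioserosa, the dorsal ectoderm and the dorsal mesoderm, were the first to pass 10 CPM, together with tup. They lie in 1 cluster on chromosome arm 3L of the build BDGP6.54, with Doc3 at 9005196 to 9007249, Doc2 on the minus strand at 9012686 to 9019246 and Doc1 at 9041375 to 9045042. The gap between Doc2 and Doc1 is 22128 bp and holds 0 other annotated genes, and that between Doc3 and Doc2 is 5436 bp with 1 gene. At stage 4 the 5 embryos had 0, 0, 0.115, 0.126 and 0.184 CPM of Doc1, from 3 reads in all, and Doc3 had 0 reads. Doc2 had 14 reads at that stage and a mean of 0.285 ± 0.191 CPM.

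At stage 5 the lowest, median and highest of 9 embryos were 43.6, 74.5 and 84.2 CPM for Doc1. They were 15.8, 31.4 and 43.9 CPM for Doc2 and 17.3, 38.5 and 47.3 CPM for Doc3. No stage 5 embryo overlapped a stage 4 embryo for any of the 3 genes. In this comparison 52.1% of all genes were called higher. Over pooled reads Doc1 was 1070-fold higher (95% counting interval 366 to 5191), and Doc3 was at least 528-fold higher, computed against 3 reads over the whole of stage 4. Doc2 rose by 6.55 ± 0.27 on the log2 scale (SE, adjusted p = 2.41e-28). Such intervals and floors cover counting error only.

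Their plateau ran from stage 6 to stage 10, and then the 3 genes fell at each later comparison. Stage 6 embryos had 72.5, 83.3, 97.3, 110.5 and 115.7 CPM of Doc1. They had 74.9, 85.2, 85.5, 103 and 104 CPM of Doc2, and 71.4, 74.5, 75.5, 76.7 and 84.6 CPM of Doc3. All stage 6 embryos were above all those of stage 5 for Doc2 and Doc3, while for Doc1 the stages overlapped. From stage 5 to 6 Doc2 rose by 1.53 ± 0.14 and Doc3 by 1.11 ± 0.16, while Doc1, already high, rose by 0.42 ± 0.14 (adjusted p = 0.00897). Between stages 6 and 8 the changes were -0.12, -0.03 and -0.14 for Doc1, Doc2 and Doc3, and 0 of the 3 were called. From stage 8 to 10 Doc3 rose by 0.49 ± 0.16 (adjusted p = 0.00844). Doc1 and Doc2 changed by 0.29 ± 0.14 and -0.16 ± 0.14, neither called, though Doc1 was called with DESeq2 size factors at 0.36.

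From stage 10 on the falls of Doc1 were 0.49 ± 0.14, 1.07 ± 0.14 and 0.71 ± 0.13 at stages 12, 13 and 15. Those of Doc2 were 0.41 ± 0.15, 1.02 ± 0.15 and 0.98 ± 0.14, and those of Doc3 were 1.01 ± 0.16, 1.38 ± 0.16 and 0.78 ± 0.16. The fall of Doc2 from stage 10 to 12 was not called without stage 12 embryo C (adjusted p = 0.0503). At stage 15 the means were 22.3 ± 3.15 CPM for Doc1, 14.9 ± 2.45 for Doc2 and 10.8 ± 2.10 for Doc3 (n = 8). All 8 stage 15 embryos lay below all 9 stage 10 embryos for each of the 3 genes. Between these stages 38.9% of all genes were called lower.

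The LIM-homeobox gene tup (2L 18859507 to 18881261, minus strand), the fly relative of vertebrate Islet, acts in the amnioserosa, the heart and motor neurons. It had 1 read at stage 4 and 23.0, 36.1 and 48.7 CPM as lowest, median and highest values at stage 5, a 1574-fold rise over pooled reads (282 to 62207). At stage 6 the 5 embryos had 118.7, 128.2, 132.5, 137.3 and 139.2 CPM, a rise of 1.88 ± 0.11. Its later course was unlike that of the Doc genes, which fell at stages 12 and 13: tup rose by 0.50 ± 0.11 to stage 12 and had its highest mean, 164 ± 9.56 CPM, at stage 13. Its fall before that, 0.32 ± 0.11 from stage 8 to 10 (adjusted p = 0.0137), was not called with DESeq2 size factors (-0.26, adjusted p = 0.0584), with the DESeq2 test (-0.26, adjusted p = 0.0543) or with a block by title letter (-0.27, adjusted p = 0.0528). The further rise from stage 12 to 13, 0.26 ± 0.11, was marginal (adjusted p = 0.044) and was lost in own-strand reads, in both other filters on low counts and without embryo B, C or D of stage 12 or any 1 embryo of stage 13 (0.22 to 0.27).

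Stage 15 embryos had 77.8 to 165.9 CPM of tup, with a median of 128 and embryo F lowest. The fall from stage 13 was 0.35 ± 0.10 (adjusted p = 0.00195). The libraries of both stages were of 2 kinds, 4 directional and 4 without strand information each. Within the directional libraries the change of tup was -0.21 (adjusted p = 0.199), and within the non-directional ones -0.56 (adjusted p = 0.0118). The calls of Hand, H15, pnr, Doc1, Doc2 and Doc3 in this comparison held within both kinds.

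The GATA gene pnr (3R 16026079 to 16041796) works in the dorsal ectoderm and in the cardiac mesoderm. Its main rise came after that of the Doc genes. The 9 stage 5 embryos had 0.645 to 8.67 CPM, with a median of 2.43, and the 5 of stage 6 had 116.3, 119.9, 155.7, 158.4 and 179.7 CPM. That is a rise of 5.55 ± 0.22 (adjusted p = 3.21e-27), following one of 46.4-fold (15.4 to 228) over pooled reads from stage 4. Stage 8 embryos stood above all those of stage 6, at 206.9, 213.1, 220.0, 242.4 and 244.6 CPM, a further rise of 0.63 ± 0.20 (adjusted p = 0.0203), which was not called without stage 6 embryo D or G (0.55 and 0.56).

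After stage 8, pnr decreased, with means of 167 ± 26.6, 143 ± 5.74 and 114 ± 25.0 CPM in stages 10, 12 and 13. The step to stage 10, -0.44 ± 0.17, was called (adjusted p = 0.0316) but not with DESeq2 size factors (-0.38, adjusted p = 0.0644), nor if C or G of stage 8 or G, H or I of stage 10 was left out (-0.41 to -0.39). Single steps to stages 12 and 13 were not called, but the step of -0.33 from 12 to 13 was with only those 2 stages in the fit (-0.34, adjusted p = 0.0293) and without stage 13 embryo D (-0.44). The step to stage 15, a fall of 1.28 ± 0.16 to 47.1 ± 11.3 CPM, was called and separated all 8 stage 15 embryos (23.7 to 63.7 CPM) from the stage 13 embryos (78 to 159).

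The NK homeobox gene tin (3R 21378977 to 21381970) is required for the heart and other dorsal mesoderm. It starts in the whole early mesoderm and ends in cardioblasts and pericardial cells. Stage 5 embryos had 0 to 2.29 CPM, with a median of 0.973, and those of stage 6 had 26.9, 39.4, 50.9, 60.4 and 60.8 CPM. The rise was 5.35 ± 0.28 (adjusted p = 1.2e-22), after one of 25.8-fold (6.69 to 221) over pooled reads from stage 4 to 5, where stage 4 held 2 reads. At stage 8 values were 63.6, 68.0, 71.7, 78.5 and 91.3 CPM, all above those of stage 6, but the rise of 0.64 ± 0.23 (adjusted p = 0.0414) was lost without stage 6 embryo D, G or H or stage 8 embryo B, C or H (0.50 to 0.67), and without a filter on low counts.

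From stage 10 to 12 and from stage 12 to 13 the falls of tin were the largest of the 10 genes. Stage 10 embryos had 30.9, 75.1 and 83.7 CPM as lowest, median and highest, stage 12 embryos 15.0, 17.5, 19.2, 20.3 and 22.9 CPM, and stage 13 embryos 3.24, 4.85 and 7.03 CPM as lowest, median and highest. These 3 sets did not overlap. The falls were 1.77 ± 0.23 and 1.91 ± 0.24 (adjusted p = 3.97e-09 and 1.37e-09). A last fall of 0.71 ± 0.25 to 3.01 ± 1.02 CPM at stage 15 was not called within the directional libraries (-0.48, adjusted p = 0.296) and was within the non-directional ones (-1.0, adjusted p = 0.0351). The stage 15 mean was 4.04% of that at stage 8.

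The T-box gene mid (2L 5461639 to 5467610) and its relative H15 (2L 5404280 to 5416593) are the fly counterparts of vertebrate Tbx20. They act in heart cells and in the patterning of the epidermis and nervous system, and lie 45045 bp apart with 5 genes between them. Their RNA had different courses. At stage 6 mid had 136.0, 172.5, 185.8, 219.8 and 247.7 CPM in the 5 embryos, after 0 to 5.20 CPM at stage 5, and the rise of 7.17 ± 0.24 was the largest of the 10 genes in that comparison (adjusted p = 8.25e-31). It then fell by 1.29 ± 0.17 from stage 8 to 10 (adjusted p = 4.2e-09), where the 9 embryos had 46.3 to 85.3 CPM and all lay below the lowest stage 8 embryo, 119 CPM. Later means were 61.1 ± 10.5, 78.1 ± 12.4 and 75.6 ± 4.85 CPM at stages 12, 13 and 15, and 0 of these 3 steps were called. The step from 12 to 13, 0.36 (adjusted p = 0.0769), was called with the DESeq2 test (0.39, adjusted p = 0.0223) and with only those 2 stages in the fit (0.35, adjusted p = 0.0209).

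H15 stayed low until stage 12. Its stage means from 6 to 12 were between 0.257 and 1.07 CPM, and they rested on 12, 25, 14 and 7 reads in the 4 stages sampled. The called rise from stage 5 to 6 set 12 reads against 1, an 18.0-fold difference with a counting interval of 2.66 to 770. The fall from stage 8 to 10, -1.45 ± 0.47 (adjusted p = 0.0081), was not called without stage 8 embryo D (-1.08). At stage 13 the 8 embryos had 1.87, 5.14 and 7.19 CPM as lowest, median and highest, and at stage 15 they had 11.1, 15.0 and 18.2 CPM. The rises were 3.92 ± 0.45 and 1.63 ± 0.24 (adjusted p = 2.32e-10 and 1.26e-07), and neither pair of neighbouring stages overlapped.

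Hand (2L 10292679 to 10295385, minus strand) encodes a regulator of cardioblasts, pericardial cells and the blood-forming lymph gland. From stage 5 to stage 10 it had 3 to 16 reads per stage and means of 0.10 to 0.446 CPM, and 6 of the 9 stage 10 embryos had 0 reads. Against 0 reads at stage 4, stage 5 was at least 7.06-fold higher. The 5 stage 12 embryos had 1.33, 2.99, 3.24, 5.58 and 5.62 CPM, those of stage 13 ranged from 6.12 to 12.6 CPM, and those of stage 15 from 11.8 to 17.1 CPM. The rises were 4.88 ± 0.46, 1.05 ± 0.29 and 0.90 ± 0.23 (adjusted p = 2.21e-12, 0.00177 and 0.000675). Only embryo G of stage 13, at 12.6 CPM, reached into the range of stage 15.

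The orphan nuclear receptor gene svp (3R 12258737 to 12302785) is known in the heart for the cardioblasts that form the inflow openings, and is also active in fat body and nervous system. Up to stage 6 its means were below 1 CPM. Stage 8 embryos had 1.59, 1.70, 1.75, 2.79 and 3.24 CPM, and the rise of 1.75 ± 0.60 (adjusted p = 0.0349) depended on single embryos, since it was not called if B, C, G or H of stage 6 or C or H of stage 8 was left out (1.59 to 1.84). At stage 10 the lowest, median and highest embryos had 11.8, 32.9 and 70.6 CPM, a rise of 3.96 ± 0.33 (adjusted p = 1.44e-14). Stage 12 embryos had 73.2, 82.9, 85.9, 90.8 and 94.4 CPM, all above every stage 10 embryo, a rise of 1.34 ± 0.22. The means of 91.4 ± 8.96 at stage 13 and 104 ± 8.64 CPM at stage 15 were not called against the stage before (adjusted p = 0.718 and 0.444). With only stages 13 and 15 in the fit, the second step was called at 0.17 (adjusted p = 0.0301).

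Neighbours in the order of levels often did not differ beyond their spread. Stages further apart in a run without a called step may still differ. For tin the order was stage 8, 10, 6, 12, 13, 15, 5 and 4, and stages 8 and 10 and stages 10 and 6 were not separated (adjusted p = 0.402 and 0.064). For pnr stage 8 led, and stages 10, 6, 12 and 13 formed a run without a called step (adjusted p = 0.367, 0.912 and 0.116). For Doc1 the order 10, 6, 8, 12 and 5 had no called step (adjusted p = 0.276, 0.685, 0.266 and 0.513). Within it, though, the edgeR test called stage 6 above stage 5 and stage 12 below stage 10 (adjusted p = 0.00897 and 0.00292). For Doc2 stages 6, 8 and 10 led without a called step, and stage 13 stood level with stage 5 (adjusted p = 0.539).

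For Doc3 stages 10, 6 and 8 led (adjusted p = 0.0521 and 0.663), and stage 12 stood below stage 8 and above stage 5 (adjusted p = 0.0111 and 0.00936). For tup stage 13 led, and stages 12, 6, 15 and 8 followed without a called step (adjusted p = 0.686, 0.812 and 0.47). For mid stages 6 and 8 led, and stages 13, 15, 10 and 12 followed below them (adjusted p = 0.81, 0.115 and 0.789 within that run). For svp stages 15, 13 and 12 led without a called step. For Hand stage 12 stood above stage 5 by 2.96 ± 0.37, and for H15 stage 13 above stage 8 by 2.11 ± 0.36. Of the stages set against each other here that are not neighbours in time, the share of all genes called in either direction was 77.5% for stages 5 and 12, 86.4% for 5 and 13 and 88.9% for 5 and 15. It was 60.0% for stages 6 and 10, 69.0% for 6 and 12 and 85.1% for 6 and 15. It was 65.0% for stages 8 and 12, 79.5% for 8 and 13, 84.2% for 8 and 15 and 84.3% for 10 and 15.

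Levels of different genes were compared per kilobase of exon in the annotation. On that scale Doc1 was the highest of the 10 at stage 5, with a mean of 44.9 CPM per kb, and mid at stage 6 with 65.9. Doc1 led again at stages 8, 10 and 12, with 55.3, 67.7 and 48.2 CPM per kb. At stages 13 and 15 tup led with 49.5 and 38.8 CPM per kb. At stage 15 mid with 25.9, Hand with 20.9 and svp with 18.5 CPM per kb came next, and tin was lowest with 1.81.

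**Figure D3:**
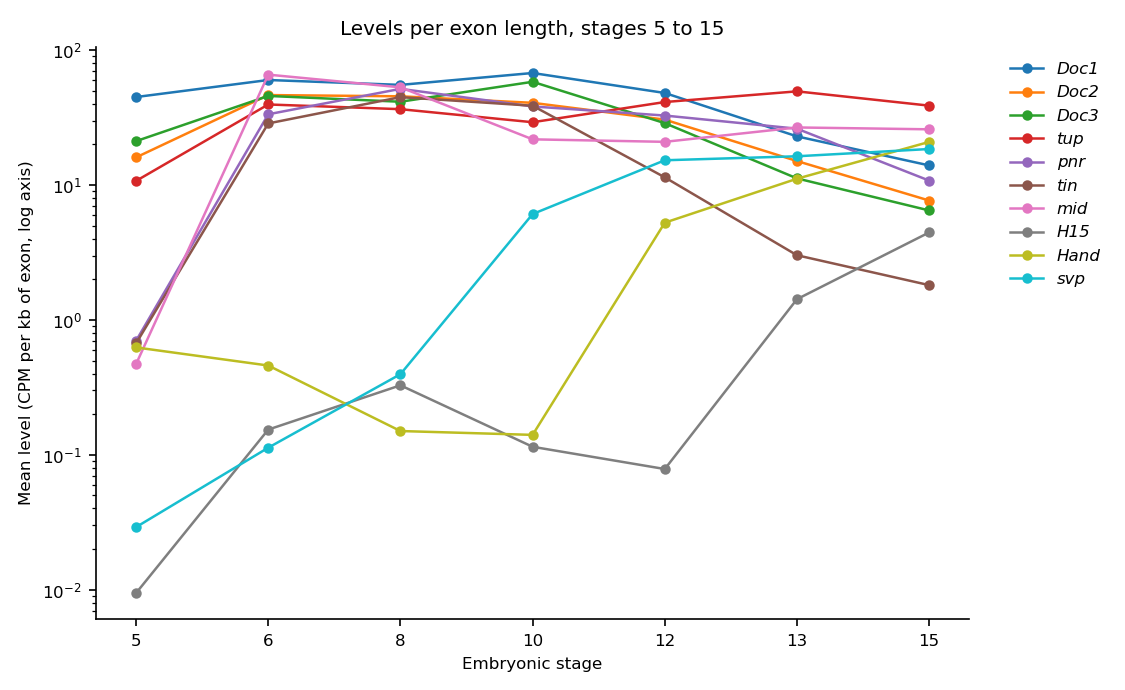
Stage mean of each gene per kilobase of exon (CPM per kb, log axis) at stages 5 to 15, 1 line per gene. At stages 6 and 8 the Doc genes, tup, pnr, tin and mid lie together between 28.6 and 65.9 CPM per kb, and by stage 15 tin has dropped to 1.81 while Hand has reached 20.9.

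Related genes were also compared by their ratio within each embryo, which no scaling of libraries affects. Exact two-sided permutation tests between neighbouring stages were adjusted over 13 tests, and 7 were called. Per length the RNA of Doc1 was 2.87 times that of Doc2 at stage 5, and 1.28 times at stage 6. The log2 ratio moved by -1.16, the 2 sets of embryos did not overlap, and the p was the smallest the design allows (exact permutation p = 0.000999, adjusted p = 0.00649). The ratio then rose again, to 1.63 at stage 10 (log2 change 0.43 from stage 8, exact permutation, adjusted p = 0.0371) and 1.82 at stage 15 (0.25 from stage 13, adjusted p = 0.0323). The first call did not hold if B, C, G or H of stage 8 or B, C, D, E, G or J of stage 10 was left out (0.36 to 0.45). The second was lost without stage 13 embryo D or I or stage 15 embryo A, B, F or H (0.21 to 0.25), and both were lost in own-strand reads of the directional libraries. The changes there were as large, 0.43 (adjusted p = 0.0545) and 0.29 (adjusted p = 0.325), the second with 4 against 4 embryos.

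The ratio of Doc3 to Doc2 also moved with stage. Through stages 5, 6, 8, 10 and 12 their ratio per length was 1.32, 0.992, 0.909, 1.41 and 0.932. The steps of -0.42 from stage 5 to 6, 0.63 from 8 to 10 and -0.60 from 10 to 12 on the log2 scale were called (exact permutation, adjusted p = 0.013, 0.013 and 0.0156). Doc3 was above Doc2 per length in 8 of 9 embryos at stage 10 and in 2 of 5 at each of stages 6, 8 and 12. It was above in 0 of 8 embryos at stage 13 and in 2 of 8 at stage 15. The step of -0.32 from stage 12 to 13 was not called (exact permutation, adjusted p = 0.106). Which of these 2 genes stood higher was not tested, and it depends on the exon lengths used. The RNA of H15 was 0.0509 times that of mid per length at stage 13 and 0.171 times at stage 15. This ratio rose by 1.75 on the log2 scale with no overlap of embryos, at the smallest p the design allows (exact permutation p = 0.0001554, adjusted p = 0.00202). In own-strand reads of the directional libraries alone, 4 against 4 at these stages, it rose by 1.69 (exact permutation, adjusted p = 0.0619).

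**Figure D4:**
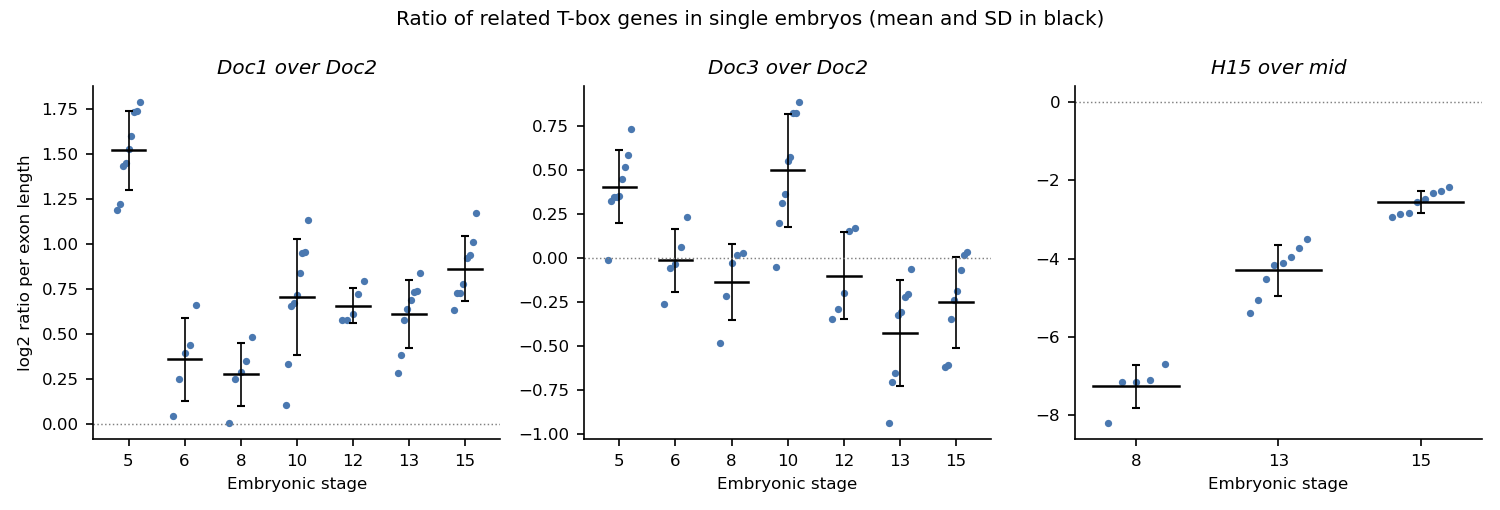
log2 ratio of related T-box genes per exon length in single embryos, by stage; points are embryos, black marks the mean and SD, and the dotted line marks equal levels. Doc1 stands furthest above Doc2 at stage 5 (mean 1.52), and H15 stands below mid in every embryo shown, at a mean of -4.30 at stage 13 and -2.55 at stage 15.

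Embryos of 1 stage differed by more than counting error for most of the genes. Over 52 gene and stage pairs with a mean of at least 5 CPM, the SD between embryos was 0.61 to 6.79 times that expected from read counts alone, with a median of 2.5, and in 31 pairs it was over 2 times. The highest value was that of svp at stage 10. Within stages 5 and 10, the stages of 9 embryos each with directional libraries alone, 34 correlations between genes were computed. These stages and the permutation p-values, exact over all pairings, were chosen after the values had been seen. The values of an embryo come from 1 library and share its scaling. How often other genes correlate over the same embryos was not computed.

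At stage 10, svp and mid were high in the same embryos. Embryo I had 70.6 CPM of svp and 77.4 of mid, embryo E had 59.6 and 85.3, and embryo B had 11.8 and 46.3. Pearson's r was 0.959 (exact permutation, adjusted p = 0.00334) and Spearman's rho 0.917 (adjusted p = 0.0112), and r was 0.954 without the 2 embryos farthest from the median. Over the same 9 embryos tin went with Doc3, with r = 0.920 (adjusted p = 0.00454), rho = 0.933 (adjusted p = 0.0112) and 0.856 without the 2 farthest. Embryos E, D and I were the lowest 3 for tin, at 30.9, 40.9 and 45.7 CPM.

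The relation of tin to the first pair was inverse. For tin and mid r was -0.808 (exact permutation, adjusted p = 0.0264), rho was -0.733 (adjusted p = 0.106) and r without the 2 farthest embryos -0.706. For tin and svp r was -0.729 and rho -0.750, and neither passed the adjustment (exact permutation, adjusted p = 0.0983 and 0.0963). Levels of svp, tin, mid and Doc3 at stage 10 were not called against the gene counts of the library (r from -0.465 to 0.447, exact permutation, adjusted p = 0.427 for all 4).

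**Figure D5:**
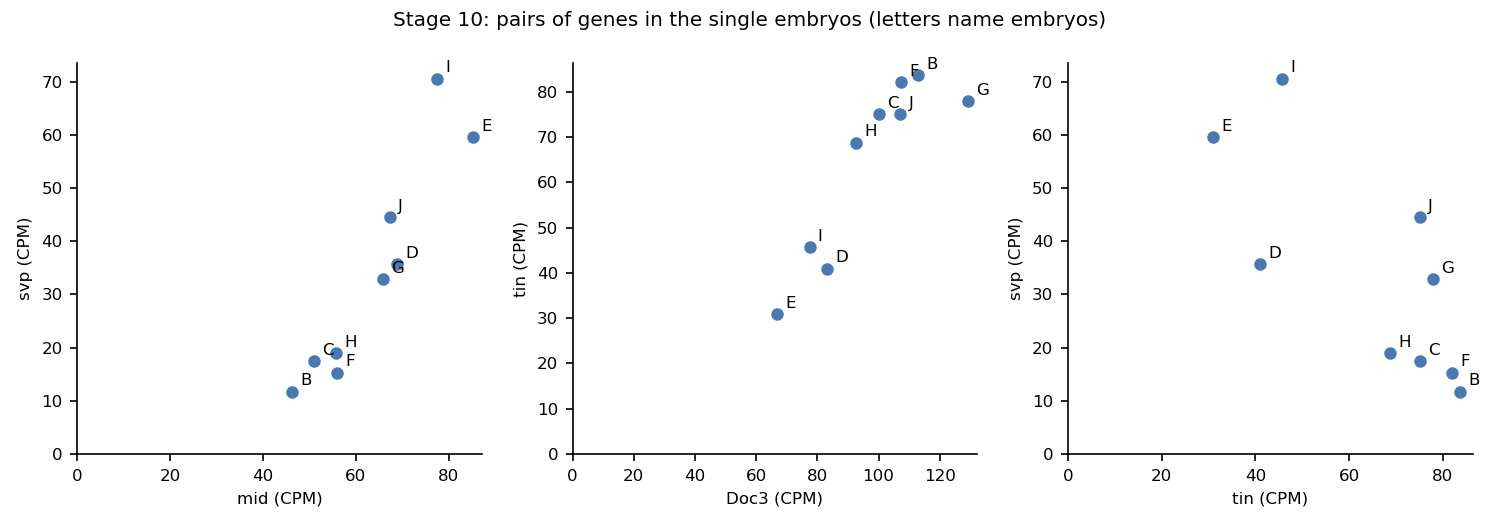
Levels in the 9 single embryos of stage 10, in CPM on both axes, for svp against mid, tin against Doc3 and svp against tin; each point is an embryo with its letter. Embryos E and I, highest for svp at 59.6 and 70.6 CPM, are among the 3 lowest for tin.

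At stage 5, Doc1, Doc2, Doc3 and tup varied together. Embryo J was the lowest for all 4, with 43.6 CPM of Doc1, 15.8 of Doc2, 17.3 of Doc3 and 23.0 of tup, and embryo F was the highest for all 4. Over the 6 pairs r was 0.868 to 0.942 (exact permutation, adjusted p = 0.00334 to 0.00945) and rho 0.817 to 0.967 (adjusted p = 0.00562 to 0.0458). Without the 2 farthest embryos r was 0.516 to 0.859. The summed level of the 10 genes ran from 104 to 229 CPM over these embryos. At stage 10 the same 6 pairs were not called, with r of 0.0353 to 0.759 (exact permutation, adjusted p = 0.0561 to 0.979).

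Across all 49 embryos of stages 5 to 15 and 7484 genes that averaged 5 CPM or more, the genes most like each of the 10 were ranked by Pearson's r of log2 CPM. These values describe shared courses over stages, since embryos of a stage lie close together. For svp they were Tmem214, mtm and fus with r of 0.981 to 0.985, and for pnr Toll-6 and trn, which encode leucine-rich repeat receptors, and CG18766 with 0.957 to 0.972. For mid they were the homeotic genes tsh and Antp and again trn, with 0.938 to 0.946. For tup they were the Wingless receptor gene fz2, the GATA gene grn and CG45263, with 0.946 to 0.961.

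For tin they were mTerf5, CG10809 and Snx17 with r of 0.945 to 0.949, for Hand CG4393, CG5381 and CG8665 with 0.941 to 0.945, and for H15 a, Papss and nahoda with 0.920 to 0.940. The Notch ligand gene Delta led for Doc1 with 0.953, Lpt and the Hedgehog pathway gene ci for Doc2 with 0.953 each, and nbs for Doc3 with 0.959. Among the 10 genes themselves the closest were Doc1 and Doc3 with 0.948, Doc2 and Doc3 with 0.936, and mid and pnr with 0.919.

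Other genes of the same tissues were followed as lists, by the number called out of those tested. Of 14 other heart genes, 10 were higher and 2 lower at stage 5 against the stage before, with a median log2 change of 5.22, against 52.1% of all genes higher and 30.6% lower. At stage 6, 7 were higher and 1 lower (median 0.88, all genes 28% and 21.5%), and at stage 12, 8 were higher and 0 lower (median 0.60, all genes 24.5% and 23.4%). The other comparisons were mixed. At stage 8, 5 were higher and 2 lower (all genes 9.8% and 8.65%), at stage 10, 5 and 4 (25.6% and 24.9%), at stage 13, 5 and 3 (31.0% and 25.0%), and at stage 15, 2 and 5 (28.8% and 27.1%). The muscle and heart regulator gene Mef2 had 335 ± 94.9 CPM at stage 12 and 485 ± 58.0 at stage 13, a rise of 0.53. Him, which holds back muscle differentiation, went from 2 reads over the 5 embryos of stage 8 to 26.7 ± 13.4 CPM at stage 10. Of this list prc and Sur were the 2 genes called higher from stage 13 to 15. Those called lower were Mef2 (-0.69), odd (-0.29), lbe (-0.51), Him (-0.81) and robo2 (-0.48). Him had also fallen from stage 12 to 13 (-0.51). The matrix gene prc had 0.361 ± 0.259 CPM at stage 12, 2.33 ± 1.15 at stage 13 and 24.6 ± 8.81 at stage 15. Its rises were 2.73 and 3.38. The channel subunit gene Sur rose by 4.73 from stage 12 to 13, from 0.351 ± 0.267 to 9.38 ± 3.01 CPM, the step at which H15 rose as well.

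Of 9 genes of the heart-inducing signals, all 9 were higher at stage 5 (median 8.36), against 52.1% of all genes. At stage 6, 5 were higher and 3 lower (median 0.46), against 28% and 21.5%. At stage 8, 2 were higher and 2 lower (all genes 9.8% and 8.65%), and at stage 10, 2 and 3 (25.6% and 24.9%). The counts were 3 and 4 at stage 12 (24.5% and 23.4%) and 1 and 1 at stage 13 (31.0% and 25.0%). The ligand gene dpp had 103 ± 4.69 CPM at stage 5 and wg 37.3 ± 12.2. The FGF receptor gene htl of the mesoderm had its highest mean at stage 6 with 206 ± 37.1 CPM. The ligand gene ths fell by 1.84 from stage 8 to 10. From stage 13 to 15, dpp, wg, put and Mad, 4 of the 9 genes, fell (27.1% of all genes were lower), while htl rose by 0.49.

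Of 8 other amnioserosa genes, 8 were higher and 0 lower at stage 5 (median 4.54), against 52.1% of all genes higher and 30.6% lower. At stage 6, 5 were higher and 3 lower (median 1.80, all genes 28% and 21.5%). At stage 8, 3 were higher and 2 lower (all genes 9.8% and 8.65%), and at stage 10, 1 and 4 (25.6% and 24.9%). The counts were 2 and 3 at stage 12 (24.5% and 23.4%) and 2 and 1 at stage 13 (31.0% and 25.0%). At stage 15 they were 0 and 1 (28.8% and 27.1%). The medians of these last 5 were 0.32, -0.42, -0.55, -0.17 and -0.22. The homeobox gene zen, which starts amnioserosa fate, had its highest mean at stage 5 with 81.1 ± 18.0 CPM, and fell by 1.43, 1.97 and 3.41 in the next 3 comparisons. The cofactor gene ush, whose protein binds GATA factors, rose by 2.90 at stage 6 and C15, a homeobox gene downstream of Dpp, by 5.01, in the comparison in which pnr rose by 5.55. The zinc finger gene peb had its highest mean at stage 12 with 561 ± 52.7 CPM. The comparisons in which the 3 Doc genes fell were mixed for this list. At stage 12 peb (0.97) and Ance (0.76) were higher while Kr (-0.88), egr (-0.70) and C15 (-0.49) were lower. At stage 13 C15 (0.74) and egr (1.10) were higher and the gap gene Kr (-1.04) was lower. At stage 15 Kr (-0.30) was the 1 gene called.

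Of 8 genes of the JNK pathway of dorsal closure, 6 were lower and 1 higher at stage 5 (median -0.64), against 30.6% of all genes lower and 52.1% higher. At stage 10, 5 were higher and 1 lower (median 0.74), against 25.6% and 24.9%. At stage 6, 3 were higher and 2 lower (all genes 28% and 21.5%), and at stage 8, 3 and 0 (9.8% and 8.65%). The counts were 4 and 0 at stage 12 (24.5% and 23.4%) and 4 and 1 at stage 13 (31.0% and 25.0%). At stage 15 they were 2 and 1 (28.8% and 27.1%). The phosphatase gene puc, a target and inhibitor of the pathway, rose by 0.53 from stage 13 to 15, to 79.2 ± 6.98 CPM. Among relatives of the members, the T-box gene bi rose at stages 10, 12 and 13, by 2.10, 1.73 and 0.89. At stage 10 the T-box gene org-1 rose by 7.61 and the hindgut T-box gene byn fell by 2.23. The GATA gene srp of blood and fat body rose by 5.50 at stage 5 and fell by 0.87 at stage 10. GATAe rose at stages 6, 8, 10, 12, 13 and 15, by 4.69, 2.41, 1.55, 0.50, 0.64 and 0.79. At stage 10, 2 of the 4 other GATA genes were higher and 1 lower, against 25.6% and 24.9% of all genes.

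The labels of the earliest and latest stages were checked with genes of known timing. The maternal gene osk had 1338 ± 152 CPM at stage 4 and 1.96 ± 0.772 at stage 15, and the furrow gene slam had 6376 ± 1176 CPM at stage 5 and means of at most 219.9 at the other stages. The myosin gene Mhc had means of 2.63 CPM at stage 5 and 3.32 at stage 10, and 0.694 ± 0.516 at stage 8. It had 10.1 ± 16.1 CPM at stage 13 and 1697 ± 622 at stage 15. The late genes of this check were not called at stages 6, 8, 10 or 12, so they cannot tell these stages apart. Of the reads of the 10 genes in the directional libraries, at least 98.7% lay on the gene's own strand. Only svp shares exonic bases with another annotated gene, 2.06% of its length with CG44037.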

How the data were processed

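The authors deposited 1 table of whole-number counts of reads per gene for each of 54 single embryos, not normalized. Reads were aligned with STAR 2.5.3a to dm6, per the submitters' processing notes; the annotation counted was not given in the sources used here. Libraries followed ribosomal RNA depletion. The 8 of 54 without strand information were told from the counts, with 50.2 to 50.5% of strand-specific counts on the opposite strand. In the other 46 it was 96.7 to 97.5%. Counts that ignore strand were used for all libraries alike. Entries that name no gene stayed out of library sizes and tests. Gene counts were 13.1 to 26.5% of all reads in an embryo's table (median 16.4%). No-gene reads alone were 0.298 to 10.6% of the reads in genes, in no gene or in several genes. Positions and exon lengths came from release 115 of BDGP6.54.

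The test was edgeR's quasi-likelihood F test (version 4.0.16, R 4.3.3), fitted once to all 54 embryos with stage as the only factor. TMM scaling was used, and 9783 genes passed edgeR's default filter. Stages were compared in 28 pairs, with two-sided Benjamini-Hochberg adjusted p-values per comparison and a threshold of 0.05. The scripts were tested on simulated counts. Ratios of related genes used counts with 0.5 added and exact permutation tests (SciPy 1.17.1). Alternatives were DESeq2 1.42.0, other filters, own-strand reads, library kinds, a replicate block by title letter and leaving out each embryo.

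The rule for named genes was to name all 10 members, genes of fixed lists, and the 3 genes most like each member. The members and the lists were chosen with earlier results of these data known. Of 10 genes of the heart-inducing signals, 9 were matched. Promoter motifs were not analysed here. At the median depth 1 CPM rests on about 5 reads.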

Additional observations from a re-analysis of the deposited data

Results flagged for a closer look

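In 60 groups of gene and stage with a mean of at least 1 CPM, the highest or lowest embryo was checked for a gap to its neighbour that is large against the range of its stage, which chance gives in about 1 in 20 groups. In 5 groups 1 embryo stood apart, each time on the high side. At stage 13, embryo D had 42.5 CPM of Doc2, from 319 reads, while the other 7 embryos had 24.4 to 29.9 CPM. The same embryo had 112 CPM of svp against 82.7 to 94.6 in the others. Embryo G of stage 13 had 12.6 CPM of Hand, from 79 reads, against 6.12 to 8.76. At low counts, embryo I of stage 5 had 5.20 CPM of mid, from 15 reads, against 0 to 2.04, and embryo D of stage 8 had 1.95 CPM of H15, from 10 reads, against 0.663 to 1.02. Without stage 8 embryo D the fall of H15 to stage 10 was not called (-1.08), and without stage 13 embryo D the changes of Doc2 and svp between stages 12, 13 and 15 kept their direction and their side of the threshold.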

How the results depend on the processing

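Of the changes of the 10 genes, 65 of 70 kept their call with the DESeq2 test, 67 with DESeq2 size factors, 68 without a filter, 69 with a filter of 1 CPM in 5 embryos and 67 in the directional libraries. From stage 8 to 10, 2 of the 10 genes were lower with DESeq2 size factors and 2 with the DESeq2 test, against 4, since pnr and tup were lost. With only the 2 stages in the fit, 4 were higher from stage 4 to 5, against 8, because the filter then left 4 of the 10 to be tested. From stage 13 to 15, 3633 genes were called in the directional libraries and 3608 in their own-strand reads, against 5472, with 8 of 16 embryos left; the other 8, the non-directional libraries, gave 4807. Of the 13 ratio tests, 4 were called in own-strand reads, against 7. Each single embryo was also left out. The number of genes higher from stage 6 to 8 then ran from 0 to 3, and was 0 without stage 6 embryo G and 1 without stage 6 embryo D or H or stage 8 embryo C or H. Changes that were not called crossed 0: Doc2 from stage 6 to 8 (-0.102 to 0.0402), Hand from 8 to 10 (-0.78 to 0.60), H15 from 10 to 12 (-0.578 to 0.0384), mid from 13 to 15 (-0.0984 to 0.0116), and the Doc1 to Doc2 ratio from 10 to 12 (-0.127 to 0.00243) and from 12 to 13 (-0.0780 to 0.00102).

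The title letters are shared by stages, and the labels do not say what they mark. Over 38 same-letter pairs of neighbouring stages the correlation of deviations was -0.236 to 0.183 and was over 0.1 in 8, so the letters were not taken as pairs. In 13 pairs the embryo went best with its own letter, where unrelated letters would give 6.11, a hint from the data and not from the design. With a replicate block by letter, mid from stage 10 to 12 was 0.0256 in place of -0.07, uncalled in both. Under the block the rise of svp from stage 5 to 6 (2.26) and that of Doc1 from 8 to 10 (0.38) were called, and the changes of Doc1 from 5 to 6 (0.32, adjusted p = 0.0527) and of tup from 8 to 10 (-0.27, adjusted p = 0.0528) were not. Where no cause is given, the cause was not tested. Depth limits the low genes: H15 and Hand rest on 3 to 25 reads per stage from stage 6 to 10.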
